A study of Homo sapiens with 72 samples.

Results

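The insulin-like growth factor (IGF) binding proteins examined here are 6 genes, IGFBP2 (ENSG00000115457), IGFBP3 (ENSG00000146674), IGFBP4 (ENSG00000141753), IGFBP5 (ENSG00000115461), IGFBP6 (ENSG00000167779) and IGFBP7 (ENSG00000163453). They were taken by gene symbol from the 61541 genes listed in each of 11 deposited tables, and all 6 were found in every table. The set was chosen by the fold changes of rescued against knockout cells, in which IGFBP5 differed strongly between 2 experiments, so those values are given below as a description. The authors' calls in those tables are counted beside the share of all genes called, and nothing is read from the counts.

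IGF-binding proteins are secreted proteins that bind IGF1 and IGF2 in the space outside the cell and control how much of these ligands reaches the IGF1 receptor, which drives growth and survival. IGFBP2 to IGFBP6 bind IGFs with high affinity, whereas IGFBP7 is a related protein with low affinity for IGFs. Proteases such as pappalysin-1 (PAPPA) cleave individual members and release the ligand. IGFBP5 is abundant in bone and is stored in bone matrix, and IGFBP4 is made by osteoblasts as well.

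The study concerned G3BP1, an RNA-binding protein that nucleates stress granules, cytoplasmic condensates assembled by stressed cells. RNA-seq was done in U2OS, a human bone osteosarcoma line, with 2 libraries in each of 9 groups. The first experiment held wild-type cells, cells in which both G3BP1 and its paralog G3BP2 were knocked out, and the knockout cells 24 h after transfection of G3BP1 (here G3BP1 rescue). The second experiment held the G3BP1/2 knockout, the knockout 24 h after lipofection of a wild-type G3BP1 transgene (WT rescue) and the knockout 24 h after lipofection of G3BP1 lacking its NTF2 domain, the domain through which G3BP1 dimerizes (NTF2-deletion rescue). Each of these 3 was sequenced without arsenite and after 200 uM sodium arsenite for 2 h. Arsenite is used to induce stress granules, and these data do not show in which groups they formed. All rescues thus carried the knockout, and the knockout groups were not transfected, so the lipofection itself cannot be told apart from the transgene. RNA immunoprecipitation (RIP) was done in FlpIn 293 Trex cells, an embryonic kidney line in which stably integrated FLAG-G3BP1 was induced with 1 ug/mL tetracycline for 24 h, and it gave 3 immunoprecipitated (IP) and 3 input libraries. Nothing in the sources used here says whether the libraries of a group came from separate cultures. The p-values set a difference between groups against the spread between such libraries, which may be technical.

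Depth, as the sum of base means over genes, was 44.2 to 46.95 M normalised reads in the first experiment, 11.99 to 17.9 M in the second and 12.2 M in RIP. A gene's base mean is its average of normalised reads in all libraries a table compares. The median log2 fold change of well-covered genes was 0.17 to 0.22 in the 4 tables of rescued against knockout cells of the second experiment and 0.12 in RIP, and members keep their calls when centred on it. G3BP1 transcripts were still counted in the knockout. Normalised reads of G3BP1 were 12479 and 12443 in the knockout libraries of the first experiment, 18824 and 17932 in wild type and 20007 and 20307 in the G3BP1 rescue. In the second experiment G3BP1 stood at 3295 and 3348 in the knockout, 544266 and 517415 in the WT rescue and 738743 and 701932 in the NTF2-deletion rescue, so the transgene was far more abundant there than in the first experiment's rescue. G3BP2 stood at 6532 and 6318 normalised reads in the first experiment's knockout and 8532 and 8022 in its wild type. Of 7 markers fixed for U2OS, VIM, RUNX2, COL1A1, SPARC and FN1 were counted in every U2OS table, from a lowest base mean of 83.0 for RUNX2, while COL1A2 reached at most 26.8 and TWIST1, a defining mesenchymal factor, at most 0.323. In RIP the kidney markers SALL2 and NEFL had base means of 489 and 1078, PAX2, LHX1 and NEFM 45.8, 36.9 and 4.87. U2OS tables held 127 to 1302 for SALL2, 232 to 4556 for NEFL, 40.1 to 336 for LHX1 and 5.89 to 188 for PAX2. Depth differed between these tables, and RIP base means average IP with input libraries. The kidney markers therefore do not show a separation of the lines. Of the markers of other cells, epithelial EPCAM was counted in both lines, with a base mean of 911 in RIP and 73.6 to 453 in U2OS. Epithelial CDH1 and blood PTPRC reached 34.7 and 35.8 in U2OS, above COL1A2, and stood at 22.8 and 0 in RIP. ESRP1, CD74, PECAM1, CDH5 and APOA1 reached at most 9.05 in U2OS. Hepatocyte ALB was at 0 in RIP and at most 1.48 in U2OS. TWIST1 had a base mean of 210 in RIP, so it was higher in the kidney line than in U2OS.

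RefSeq promoters of GRCh38.p14 were found for 5 of the 6 members. The 250 bases before the start are shown, 5′ to 3′ on the gene's strand, for the 3 of them with enough reads to be tested in U2OS, so that promoters of members with unlike responses can be set side by side. Capitals mark a TATA-like motif (TATNNA) or a GC box (GGGCGG), each searched on both strands.
IGFBP4, chr17:40443200-40443449, plus strand: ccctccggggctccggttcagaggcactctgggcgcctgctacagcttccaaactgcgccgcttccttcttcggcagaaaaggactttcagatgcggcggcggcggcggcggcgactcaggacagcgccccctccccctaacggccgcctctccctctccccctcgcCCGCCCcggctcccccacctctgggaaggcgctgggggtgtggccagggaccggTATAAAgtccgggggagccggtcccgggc
IGFBP5, chr2:216695550-216695799, minus strand: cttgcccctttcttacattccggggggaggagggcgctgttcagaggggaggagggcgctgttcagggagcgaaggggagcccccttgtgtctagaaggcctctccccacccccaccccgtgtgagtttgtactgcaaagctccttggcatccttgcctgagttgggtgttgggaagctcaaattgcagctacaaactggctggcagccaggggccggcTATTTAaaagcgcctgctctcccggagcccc
IGFBP6, chr12:53097417-53097666, plus strand: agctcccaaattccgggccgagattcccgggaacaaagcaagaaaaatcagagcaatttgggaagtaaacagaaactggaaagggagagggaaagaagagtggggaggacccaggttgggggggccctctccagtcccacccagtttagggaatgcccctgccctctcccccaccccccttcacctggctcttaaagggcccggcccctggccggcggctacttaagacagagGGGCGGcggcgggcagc
IGFBP4 held TATAAA 29 to 24 bases before its start and a GC box on the other strand at 83 to 78. IGFBP5 held TATTTA at 31 to 26 bases before its start and no GC box. IGFBP6 held a GC box at 17 to 12 bases before its start and no TATA-like motif. None of these 3 windows held a CCAAT box (CCAAT) or an AP-1 motif (TGANTCA) on either strand, and no marked match overlaps another. Among 35116 promoter windows of the same length, 45.6% held a TATA-like motif, 42.6% a GC box, 32.0% a CCAAT box and 6.6% an AP-1 motif. GC content was 71.6% in the IGFBP4 window and 61.2% in both the IGFBP5 and the IGFBP6 window, against a median of 58.0% over all windows. These matches describe letters in a window and not bound sites.

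IGFBP5, which in bone both sequesters and presents IGFs, was the member with the widest range in U2OS. Levels are given as normalised reads, the reads of a library divided by its size factor, on a scale where the knockout libraries of the same experiment average 1, so levels of the 2 experiments are not on one scale. In the first experiment IGFBP5 had 2173 and 1906 normalised reads in the wild-type libraries, 2093 and 2110 in the knockout and 951 and 942 in the G3BP1 rescue. The wild-type and knockout libraries overlapped, and both rescue libraries lay below all others, at 46.4% of the wild-type mean. In the second experiment IGFBP5 had 1201 and 1125 normalised reads in the knockout, but 14.3 and 22.5 in the WT rescue and 29.4 and 25.2 in the NTF2-deletion rescue. These rescue libraries rested on 15 and 23 reads and on 33 and 27 reads, at 1.6% and 2.3% of the knockout mean. IGFBP5 was thus lower in rescued than in knockout cells in both experiments, 2.22-fold in the first and 63.2-fold in the second, by the ratio of mean normalised reads. Wild-type cells were sequenced in the first experiment only, where their libraries overlapped those of the knockout. The cause of the lower level was not tested. With any 1 library left out, the log2 ratio of WT rescue over knockout for IGFBP5 ran from -6.35 to -5.69. In the authors' deposited table IGFBP5 stood at a log2 fold change of -5.73 (SE 0.24) for WT rescue over knockout, among the 10732 genes tested whose base mean reached 100, ranking 4 from the lowest. For the NTF2-deletion rescue it ranked 6 of 10808, at -5.24 (SE 0.21) in the authors' deposited table. Contrasts of this kind chose the members, so the wide range of IGFBP5 and these ranks are a description and support nothing. In bulk RNA, fewer cells that express a gene and less of its RNA per cell cannot be told apart.

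**Figure D1:**
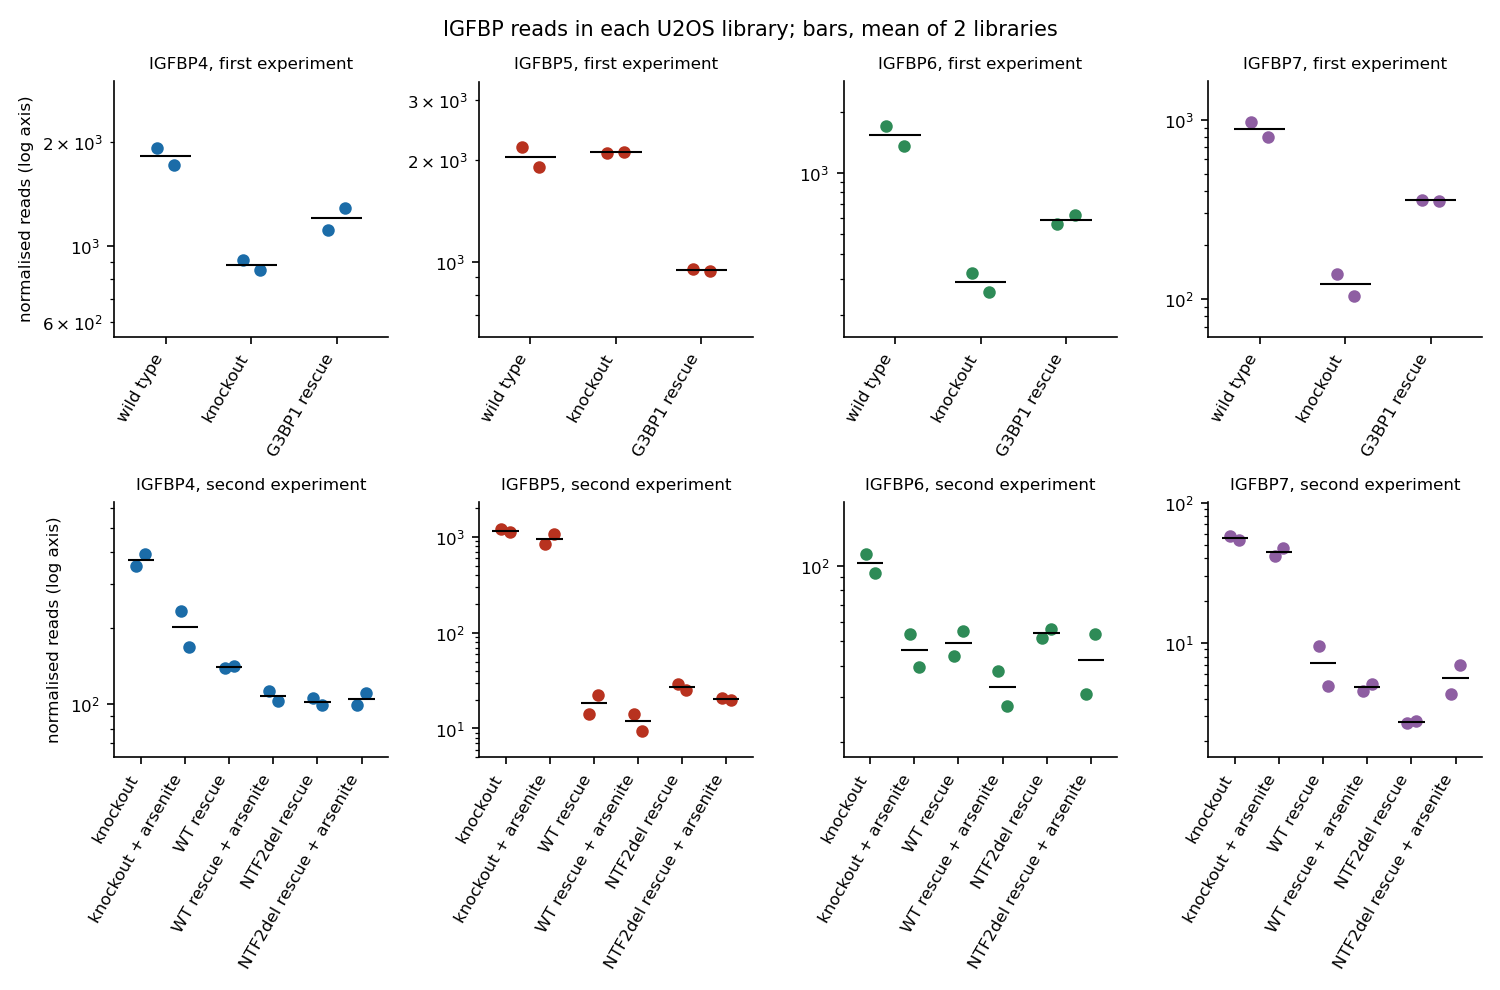
Normalised reads (log axis) of IGFBP4, IGFBP5, IGFBP6 and IGFBP7 in each library of the first experiment (upper row) and the second (lower row); points are libraries and bars the mean of 2. IGFBP5 falls to between 9.51 and 29.4 normalised reads in every rescue library of the second experiment, whereas IGFBP4, IGFBP6 and IGFBP7 of the first experiment are highest in wild type, lowest in knockout and between them in the rescue.

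Whether loss of G3BP1 and G3BP2 changed the family was asked by comparing knockout with wild-type cells. IGFBP4, IGFBP6 and IGFBP7 were lower in the knockout, and IGFBP5 was not called. IGFBP7 had 973 and 799.7 normalised reads in wild type and 137 and 103 in knockout, so that the knockout held 13.6% of the wild-type level. IGFBP6, which prefers IGF2 over IGF1, had 1704 and 1347 normalised reads in wild type against 319 and 257 in knockout, or 18.9%. IGFBP4, which inhibits IGF action in most settings, had 1915 and 1717 normalised reads in wild type and 908 and 852 in knockout, or 48.4%. For all 3 the wild-type and knockout libraries did not overlap. The share of all genes with such a separation is not known, here or in the other comparisons, and nothing is read from it. The authors' deposited table gave a log2 fold change of -2.76 for IGFBP7 (SE 0.17, DESeq2 adjusted p 2.01e-54). IGFBP6 stood at -2.34 (SE 0.14, adjusted p 5.66e-59) and IGFBP4 at -1.03 (SE 0.10, adjusted p 1.75e-23), per the authors' deposited table. For IGFBP5 the authors' deposited table gave 0.04 (SE 0.09, adjusted p 0.773). Of the 4 members with an adjusted p, 3 were called, where 37.8% of all 25724 genes tested were. The 3 calls held when the Wald statistics were divided by their robust spread in that table, 2.35. The members' median log2 fold change was -1.68, against 0.01 over all genes tested.

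In the G3BP1 rescue of the first experiment these 3 members stood between knockout and wild type. IGFBP7 reached 358 and 352 normalised reads in the rescue, 40.1% of wild type. IGFBP6 reached 557 and 616 normalised reads, 38.5% of wild type, and IGFBP4 1114 and 1285, 66.0% of wild type. Each lay above both knockout libraries and below both wild-type libraries, while IGFBP5, unlike them, dropped below both groups. As a description, the authors' deposited table of knockout against rescue gave log2 fold changes of -1.40 for IGFBP7, -0.96 for IGFBP6, -0.43 for IGFBP4 and 1.13 for IGFBP5. All 4 members tested were called there, 37.6% of all genes being called, and IGFBP5 and IGFBP7 stayed called when the Wald statistics were divided by their robust spread. This contrast took part in choosing the members, so the count supports nothing. All 4 were also called higher in wild type than in rescue. Of all genes, 15.2% were called higher there and 35.6% in either direction. Log2 fold changes were 1.31 for IGFBP6, 1.23 for IGFBP7, 1.07 for IGFBP5 and 0.57 for IGFBP4 in the authors' deposited table. The comparisons of knockout and of wild type with rescue share the rescue libraries. Knockout against rescue also shares its knockout libraries with knockout against wild type. The levels between are therefore not separate from the calls in the knockout.

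In the second experiment the same 4 members were all lower in rescued than in knockout cells. IGFBP7 had 57.4 and 54.2 normalised reads in the knockout, 9.51 and 4.90 in the WT rescue and 2.67 and 2.80 in the NTF2-deletion rescue, where each library held 3 reads. IGFBP4 had 353 and 392 normalised reads in the knockout, 139 and 142 in the WT rescue and 106 and 98.9 in the NTF2-deletion rescue. IGFBP6 had 111 and 93.6 normalised reads in the knockout, 43.8 and 54.9 in the WT rescue and 51.7 and 56.0 in the NTF2-deletion rescue. No rescue library of any of these members reached a knockout library. The WT rescue held 37.7% of the knockout level of IGFBP4, 48.2% of IGFBP6 and 12.9% of IGFBP7. As a description, log2 fold changes of WT rescue over knockout were -1.37 for IGFBP4, -0.97 for IGFBP6 and -2.35 for IGFBP7 in the authors' deposited table, where all 4 members tested and 42.1% of all genes were called. The authors' deposited table of the NTF2-deletion rescue gave -1.81 for IGFBP4, -0.86 for IGFBP6 and -3.18 for IGFBP7, again with all 4 members called, against 41.5% of all genes. Both contrasts are of the kind that chose the members, so these counts support nothing either. With the Wald statistics divided by their robust spread, IGFBP5 stayed called in the WT rescue, and IGFBP4 and IGFBP5 in the NTF2-deletion rescue. Against the untreated knockout, the WT rescue with arsenite stood at -1.75 for IGFBP4, -6.35 for IGFBP5, -1.52 for IGFBP6 and -2.98 for IGFBP7 in the authors' deposited table. The NTF2-deletion rescue with arsenite stood at -1.78 for IGFBP4, -5.65 for IGFBP5, -1.18 for IGFBP6 and -2.71 for IGFBP7 in the authors' deposited table. All 4 members were called lower in both, IGFBP4 and IGFBP5 also with the Wald statistics divided by their spread, and these 4 tables share the knockout libraries. Of all genes, 19.8% were called lower for the WT rescue with arsenite and 44.9% in either direction. For the NTF2-deletion rescue with arsenite these shares were 19.6% and 43.0%.

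The direction of the rescue was thus opposite between the experiments for IGFBP4, IGFBP6 and IGFBP7, and the same for IGFBP5. By the ratio of mean normalised reads, log2 rescue over knockout for IGFBP7 was 1.56 in the first experiment (1.37 to 1.78 with 1 library left out) and -2.95 in the second (-3.51 to -2.55). IGFBP6 went from 1.03 to -1.05 and IGFBP4 from 0.447 to -1.41. Of the 8617 genes called in knockout against G3BP1 rescue and the 8738 called in WT rescue against knockout, 5757 were called in both. Of these, 657 (11.4%) moved in opposite directions, and 380 (6.6%) were higher in rescue in the first experiment and lower in the second, as these 3 members were. A further 2158 (37.5%) were lower in rescue in both, as IGFBP5 was. The 2 comparisons share no library, but each experiment had its own knockout and rescue libraries, so experiment and transgene level cannot be told apart.

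**Figure D2:**
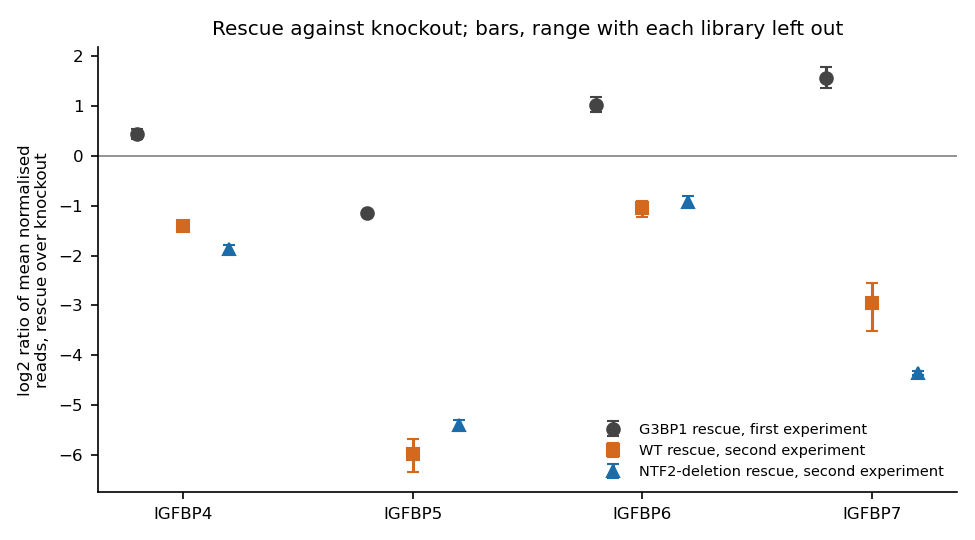
Log2 ratio of mean normalised reads, rescue over knockout, for 4 members; bars span the ratio with each library left out in turn. Circles (first experiment) lie above 0 for IGFBP4, IGFBP6 and IGFBP7, while squares and triangles (second experiment) lie below 0 for all 4, near -6 for IGFBP5.

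The NTF2 domain was asked about by comparing the 2 rescues through their shared knockout. The difference between these rescues did not choose the members, although it is built from contrasts of the kind that did. No member was called as different between WT and NTF2-deletion rescue in unstressed cells by the test of the difference of log2 fold changes (normal, two-sided, Benjamini-Hochberg over 16210 genes), and 0.0185% of all genes were, 3 in all. IGFBP5 differed by -0.49 (WT minus NTF2 deletion, SE 0.32, adjusted p 1), IGFBP4 by 0.44 (SE 0.28, adjusted p 1), IGFBP7 by 0.83 (SE 0.70, adjusted p 1) and IGFBP6 by -0.11 (SE 0.45, adjusted p 1). No member reached an unadjusted p of 0.05, the lowest being 0.114 for IGFBP4. The summed error is too large, since the knockout libraries enter both contrasts, so the lack of a call does not show equal levels. With the error shared through the knockout libraries removed, IGFBP4 had an unadjusted p of 0.0381 and still an adjusted p of 1, and 19 of all genes were called. For IGFBP4, the WT rescue libraries (139 and 142 normalised reads) lay above the NTF2-deletion libraries (106 and 98.9). For IGFBP5 the order was the reverse, 14.3 and 22.5 normalised reads against 29.4 and 25.2.

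Arsenite lowered IGFBP4 and IGFBP6 in knockout cells. IGFBP4 went from 353 and 392 normalised reads to 234 and 169, or 54.1% of the untreated mean, and IGFBP6 from 111 and 93.6 to 53.4 and 39.5, or 45.4%. Treated and untreated knockout libraries did not overlap for either, though the share of all genes separated like this is not known. IGFBP5 had 846 and 1065 normalised reads with arsenite, both below the 1201 and 1125 without it, and IGFBP7 41.6 and 47.8, but neither was called. Log2 fold changes of -0.81 for IGFBP4 (SE 0.18, DESeq2 adjusted p 8.72e-05) and -0.87 for IGFBP6 (SE 0.27, adjusted p 0.00837) were given by the authors' deposited table. IGFBP5 stood at -0.27 (SE 0.12, adjusted p 0.0787) and IGFBP7 at -0.23 (SE 0.29, adjusted p 0.708), per the authors' deposited table. Of the 4 members tested, 2 were called, against 19.4% of all genes. Neither call held when the Wald statistics were divided by their robust spread in that table, 1.60.

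In the rescued cells no member was called with arsenite. In the WT rescue, IGFBP4 had 113 and 103 normalised reads with arsenite against 139 and 142 without. IGFBP6 had 38.1 and 27.8 normalised reads with arsenite against 43.8 and 54.9. The authors' deposited table gave -0.35 for IGFBP4 (SE 0.15, DESeq2 adjusted p 0.0848) and -0.35 for IGFBP6 (SE 0.18, adjusted p 0.194), the 2 members tested, and 20.4% of all genes were called. IGFBP4 alone reached an unadjusted p under 0.05 there, at 0.0199. In the NTF2-deletion rescue IGFBP4 had 98.95 and 111 normalised reads with arsenite against 106 and 98.9, overlapping values. Its log2 fold change was 0.01 (SE 0.14, adjusted p 0.991), per the authors' deposited table, where IGFBP4 was the only member tested and 8.57% of all genes were called. None of the members reached an unadjusted p of 0.05 in the NTF2-deletion rescue. IGFBP5 and IGFBP7 had no adjusted p in either rescue, nor had IGFBP6 in the NTF2-deletion rescue. IGFBP5 had 14.2 and 9.51 normalised reads with arsenite in the WT rescue and 20.7 and 19.9 in the NTF2-deletion rescue. IGFBP7 had 4.57 and 5.12 normalised reads with arsenite in the WT rescue and 4.30 and 6.93 in the NTF2-deletion rescue, resting on 5 to 9 reads a library.

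The arsenite response of IGFBP4 differed between NTF2-deletion rescue and knockout cells. The difference of log2 fold changes was 0.82 (SE 0.23, adjusted p 0.00739 by the normal test over 15442 genes, two-sided, Benjamini-Hochberg), and 7.12% of all genes passed. The call did not hold once the shrinkage of the deposited fold changes was undone, with a difference of 0.90 (SE 0.33, adjusted p 0.0974). IGFBP6 differed by 0.76 (SE 0.30, adjusted p 0.114) and IGFBP5 by 0.19 (SE 0.16, adjusted p 0.693), the latter turning to -0.16 with the shrinkage undone. Between WT rescue and knockout the arsenite response of IGFBP4 differed by 0.46 (SE 0.23, adjusted p 0.373, unadjusted p 0.0478), that of IGFBP6 by 0.53 (SE 0.33, adjusted p 0.565) and that of IGFBP5 by 0.07 (SE 0.21, adjusted p 0.968), turning to -0.39 with the shrinkage undone. Here 4.51% of all genes were called. Between the 2 rescues it differed by -0.36 for IGFBP4 (SE 0.20, adjusted p 1), and 0.328% of all genes were called. Over these 4 kinds of difference, the IGFBP4 response in the NTF2-deletion rescue against knockout was the 1 member called.

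**Figure D3:**
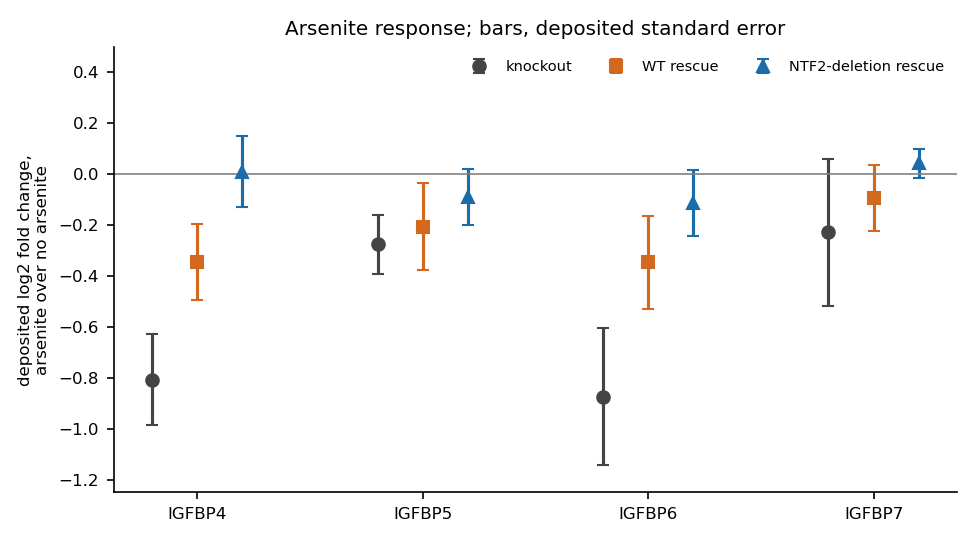
Deposited log2 fold change of arsenite over no arsenite for 4 members in knockout (circles), WT rescue (squares) and NTF2-deletion rescue (triangles); bars are the deposited standard errors. IGFBP4 and IGFBP6 are lowest in knockout cells, where their calls were made. The fold changes are shrunk more strongly in the rescues: by the ratio of recovered reads, the log2 values of IGFBP5 were -0.28 in knockout, -0.69 in WT rescue and -0.44 in NTF2-deletion rescue.

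The levels of each member across the second experiment had a different order. IGFBP5 ran from the knockout (1201 and 1125 normalised reads) through the arsenite-treated knockout to the NTF2-deletion rescue and then the WT rescue, the widest gap being that between treated knockout and rescued cells. For IGFBP5 the WT rescue and the NTF2-deletion rescue with arsenite overlapped. For IGFBP4 the 3 lowest groups, WT rescue with arsenite and both NTF2-deletion groups, overlapped between 98.9 and 113 normalised reads. For IGFBP6 the untreated knockout stood alone, and the other groups lay between 27.8 and 56.0 normalised reads, each overlapping its neighbour in level. For IGFBP7 the 2 knockout groups stood above 41 normalised reads and every rescue library below 10.

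Which IGFBP transcripts travel with G3BP1 was asked in the kidney line, where IGFBP2 had the largest base mean of the members, a value that is not per length. IGFBP2, IGFBP4 and IGFBP7 were higher in IP than in input, and IGFBP5 was lower. The log2 fold change of IGFBP2, at a base mean of 1286, was 1.52 (SE 0.15, DESeq2 adjusted p 1.13e-24), per the authors' deposited table. IGFBP7 had 44.5, 58.1 and 57.4 normalised reads in IP and 9.25, 21.3 and 9.07 in input. IGFBP4 had 21.4, 16.6 and 26.8 normalised reads in IP and 6.48, 5.56 and 9.07 in input. In both the IP libraries lay above all input libraries, though the share of all genes separated like this is not known. The authors' deposited table gave 1.91 for IGFBP7 (SE 0.41, adjusted p 1.12e-05) and 1.5 for IGFBP4 (SE 0.54, adjusted p 0.0107). IGFBP6 had 13.2, 28.6 and 10.2 normalised reads in IP and 13.9, 1.85 and 5.67 in input, which overlapped, and its log2 fold change of 1.13 (SE 0.66, adjusted p 0.132) was not called in the authors' deposited table. IGFBP5 stood at -0.44 (SE 0.17, adjusted p 0.0205, base mean 198) in the authors' deposited table. Of 5 members tested, 4 were called, where 56.1% of all genes were called. The members' median log2 fold change was 1.5 and that of all genes tested -0.26. None of the 4 calls held when the Wald statistics were divided by their robust spread in this table, 3.84, and those of IGFBP4 and IGFBP5 did not hold at an adjusted p of 0.01.

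**Figure D4:**
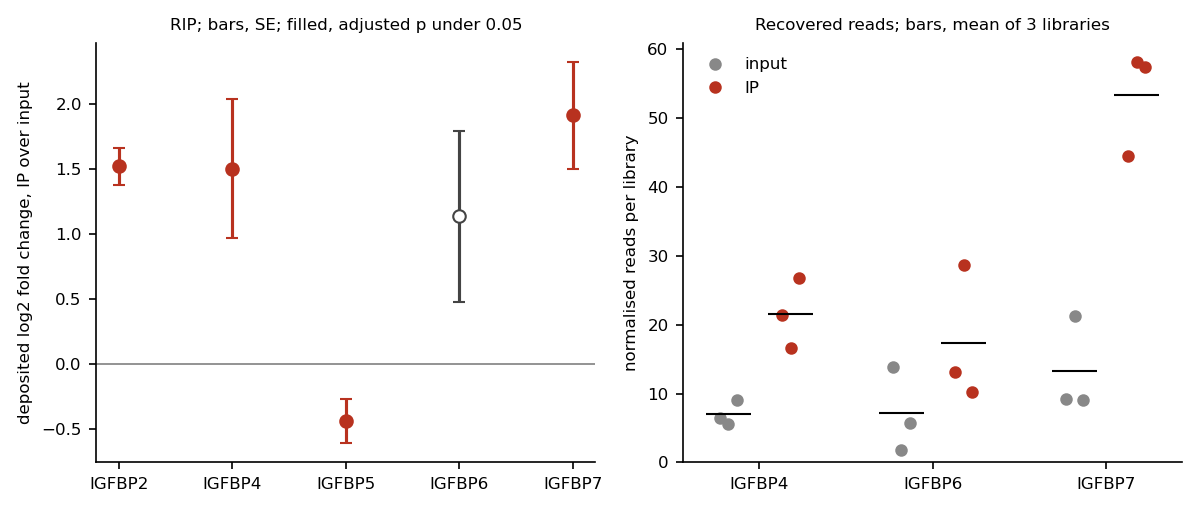
Left, deposited log2 fold change of RIP IP over input for 5 members with the deposited standard error, filled where the adjusted p was under 0.05. Right, normalised reads of each of 3 input and 3 IP libraries for IGFBP4, IGFBP6 and IGFBP7, bars marking means. Reads of IGFBP3 were recovered too, at most 3 in a library, and are not drawn. IGFBP2, IGFBP4 and IGFBP7 lie at 1.5 to 1.91 and IGFBP5 at -0.44, and the IGFBP6 libraries overlap.

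IGFBP2 and IGFBP3, the latter the main carrier of IGFs in blood, were close to absent from U2OS. IGFBP2 had 0 and 0 reads in the wild-type libraries of the first experiment, 5 and 1 in the knockout and 4 and 3 in the G3BP1 rescue, and no more than 4 in any library of the second. IGFBP3 had 3 and 2 reads in wild type, 3 and 0 in the knockout and 1 and 4 in the rescue. It had at most 3 reads in any library of the second experiment and at most 3 in any RIP library. A library with 0 reads allows up to 3. Neither had an adjusted p in any U2OS table, so a difference was not detectable at this depth. IGFBP2 thus had a base mean of 1286 in the kidney line and at most 3.10 in a U2OS table, values normalised separately.

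Other genes of the IGF axis, 38 in all from lists of ligands, receptors and adaptors, proteases and regulators, IGF2 mRNA-binding proteins and other proteins with an IGFBP-like domain, changed in both directions. In knockout against wild type, 12 of 34 tested were higher and 16 lower (18.4% and 19.4% of all genes), with a median of -0.37 against 0.01 over all genes. Of the 3 IGF2 mRNA-binding genes, the oncofetal IGF2BP3 and IGF2BP1 were higher by 4.12 and 4.12 on the log2 scale in the authors' deposited table (adjusted p 1.32e-98 for IGF2BP3, printed as 0 for IGF2BP1). The third of them, IGF2BP2, named after its value was seen, was called lower at -0.45 (SE 0.05), per the authors' deposited table. STC1, a secreted inhibitor of PAPPA, was at -4.60 (SE 0.22, adjusted p 9.27e-99) and CCN4, a matricellular WNT target, at -4.15 (SE 0.31, adjusted p 6.33e-39), per the authors' deposited table. In knockout against G3BP1 rescue, 11 of 31 were higher and 12 lower (16.1% and 21.5% of all genes). PAPPA, which cleaves IGFBP4, stood at 1.71 and IGF2BP1 at 0.88, with STC1 at -3.25 and the ligand IGF2 at -2.07, in the authors' deposited table. In WT rescue against knockout, 9 of 28 were higher and 12 lower (23.0% and 19.1% of all genes). ESM1, a secreted endothelial-type proteoglycan, stood at 5.35 and CCN1, a matricellular protein, at 1.67 in the authors' deposited table. PAPPA stood at -3.25 and LRP1, an endocytic receptor, at -2.36 in the same authors' deposited table. PAPPA was thus lower in rescue than in knockout in both experiments, as IGFBP5 was. In that second table, 2 of 7 receptors and adaptors were higher and 2 lower. IGF2 was the 1 ligand tested and was called lower, at -1.77, with 4 reads in each WT rescue library. IGF2 was thus higher in rescue in the first experiment and lower in the second, as IGFBP4, IGFBP6 and IGFBP7 were.

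Arsenite in the knockout raised 2 of 26 tested IGF-axis genes and lowered 7 (8.6% and 10.9% of all genes). CCN2 and CCN1, rapidly induced matricellular genes, rose by 3.12 (SE 0.06) and 2.38 (SE 0.06) on the log2 scale, with adjusted p-values of 0 in the authors' deposited table. CCN3 fell by 1.02 (SE 0.17, adjusted p 2.42e-08) and ADAM12, a metalloprotease that can cleave IGFBPs, by 0.60 (SE 0.10, adjusted p 2.18e-08), per the authors' deposited table. In RIP, 4 of 29 IGF-axis genes were higher in IP and 14 lower (24.7% and 31.4% of all genes), with a median of -0.83 against -0.26. TMEM219, a death receptor for IGFBP3, was at 1.65 (SE 0.14, adjusted p 5.08e-29), per the authors' deposited table. IGF2R, which clears IGF2, was at -3.83 (SE 0.21, adjusted p 4.40e-75) and LRP1 at -3.39 (SE 0.22, adjusted p 3.19e-52), per the authors' deposited table. All 3 IGF2 mRNA-binding genes and 6 of 8 receptors and adaptors were lower in IP, none of either list being higher. The other proteins with an IGFBP-like domain had a positive median, 0.47, with 3 of 9 higher and 1 lower, so a positive median was not particular to the members.

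**Figure D5:**
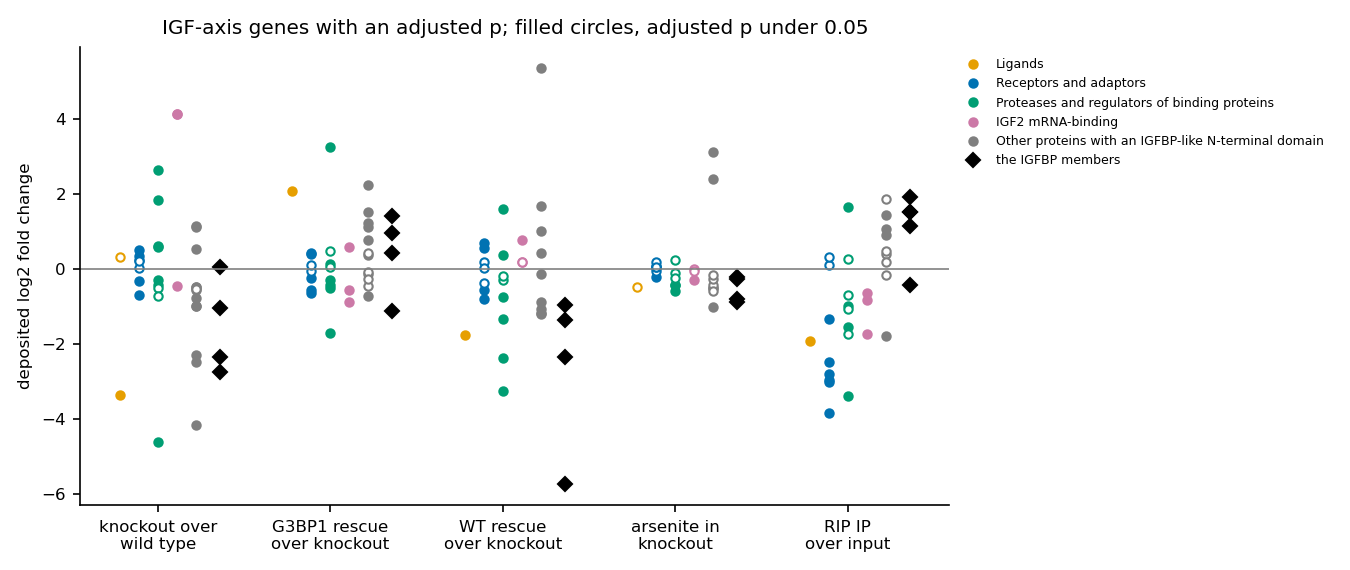
Deposited log2 fold change of IGF-axis genes with an adjusted p in 5 comparisons, by list; filled circles have an adjusted p under 0.05, and black diamonds are the IGFBP members whether called or not. Of the members tested, 3 lie well below 0 and IGFBP5 at 0.04 in knockout over wild type, all 4 below 0 in WT rescue over knockout, and all but IGFBP5 above 0 in G3BP1 rescue over knockout and in RIP.

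The genes whose pattern was most like that of IGFBP5 were sought by the root mean square difference of deposited log2 fold changes over the 10 U2OS tables, which share libraries, among 10055 genes whose base mean reached 100 in each. They were SDC2 (0.68), a heparan sulfate proteoglycan, LAMA5 (0.69), a laminin chain of basement membranes, DCHS2 (1.18), a cadherin, TGFB2 (1.30), a growth factor, and SSC4D (1.39). The log2 fold changes of WT rescue over knockout were -4.79 for SDC2, -4.58 for LAMA5, -4.14 for DCHS2, -3.75 for TGFB2 and -3.69 for SSC4D in the authors' deposited table. Those of knockout over G3BP1 rescue were 1.73 for SDC2, 1.07 for LAMA5, 1.60 for DCHS2, 1.47 for TGFB2 and 1.07 for SSC4D in the authors' deposited table. Since these tables were part of the measure that chose the 5 genes, their shared direction is no separate result.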

How the data were processed

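Per the labels' protocols, libraries of poly-A RNA were made with a directional kit; the genome build, the annotation and whether reads were counted by strand are not given in the sources used here. STAR 2.7.0f (RIP and first experiment) and DESeq2 2.11.40.6 are named in the submitters' processing notes. The 24 libraries used form 11 groups; the other 48 of 72, which carry RNA-editing fusions or their controls, are not analysed here. The values are 11 tables of the authors' DESeq2 comparisons, each with 61541 genes and 4 summary lines of the counting, which were removed. The base mean the authors deposited is a signal, a mean of reads divided by size factors over all libraries compared. The deposited fold change is on the log2 scale, first-named over second-named group, shrunk toward 0 by the authors. The deposited Wald statistic is a score, fold change over standard error, and the deposited p-value and adjusted p-value are the authors'. Genes with an adjusted p under 0.05 are named as called.

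Whole reads of single libraries were recovered here from base means printed to 15 digits, jointly over the tables that share libraries; in RIP only up to a base mean of 40, where all solutions were enumerated. They carry no replicate numbers and were not used for a count test. Reads were recovered for the members, G3BP1, G3BP2 and the IGF-axis genes only. The share of all genes whose libraries do not overlap is thus not known, and nothing is read from such separations. Differences between tables were divided by their joint standard error, given a two-sided normal p (SciPy 1.17.1) and adjusted over all genes whose base mean reached 10 in both. The difference test and the recovery of reads were tested on simulated data. For the difference test, noise was drawn with the deposited standard errors, without shrinkage or shared libraries. That simulation therefore cannot show whether the test holds where these matter. Genes named outside the members were, per main comparison, the 2 highest and 2 lowest fold changes among called IGF-axis genes whose base mean reached 100, and the 5 genes most like IGFBP5. Intervals were not computed from recovered reads, whose number limits precision by counting error only. The members, gene lists and tests were chosen with earlier results of these data known. Alternatives changed the centring, the width of the Wald statistics, the adjustment, the thresholds, the base mean minimum, the shrinkage and the libraries.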

Additional observations from a re-analysis of the deposited data

Results flagged for a closer look

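The arsenite response of IGFBP4 differed between NTF2-deletion rescue and knockout cells, with a difference of log2 fold changes of 0.817 by the normal test over all genes; with the shrinkage undone it was no longer called (adjusted p 0.0974). For IGFBP4 the log2 ratio of rescue over knockout was 0.447 in the first experiment and -1.41 in the second. For IGFBP6 it was 1.03 and -1.05, and for IGFBP7 1.56 and -2.95. In these pairs every rescue library lay above both knockout libraries in the first experiment and below both in the second. How many of all genes have libraries placed like this is not known, because reads were not recovered for all genes. Of the genes called in both experiments, 6.6% were higher in rescue in the first and lower in the second. Contrasts of this kind chose the members, and the difference between the experiments was not tested.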

How the results depend on the processing

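Over the 11 tables the authors' adjusted p called members 33 times, counting a member once in each table. Every table of a rescue against knockout gave 4 of these calls. Such contrasts chose the members and share libraries, so the pooled count supports nothing. With each table's Wald statistics divided by its robust spread, 15 calls were left; the cause was not tested. Centring and adjustment over all genes with a p-value left 33 each, an adjusted p under 0.01 left 30, and an absolute log2 fold change of at least 1 left 25. Calls over all genes moved as well. In WT rescue against knockout they went from 8738 to 2428 with the Wald statistics divided by their spread. Centring gave 8770 there and adjustment over all genes 8245. The stricter adjusted p gave 7312 and the fold change threshold 3541. The 1 member called for the arsenite response of the NTF2-deletion rescue against knockout went to 0 with the shrinkage undone; its other alternatives, and all of those for the other differences between tables, gave the same number of members. With the shrinkage undone, the difference in arsenite response of IGFBP5 turned from 0.07 to -0.39 for the WT rescue against knockout and from 0.19 to -0.16 for the NTF2-deletion rescue against knockout, none of them called; the cause was not tested. No called fold change of a member changed sign under centring, under the ratio of recovered reads or with any 1 library left out. Depth limits the lowest values: IGFBP7 in the NTF2-deletion rescue against knockout stood at -3.18 as deposited and at -4.35 by recovered reads, with 6 reads in the rescue. No paired analysis was possible because the deposited tables hold no column per library and recovered reads cannot be tied to numbered replicates.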
